A study of Saccharomyces cerevisiae with 12 samples.

Results

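The 10 genes described here belong to nucleotide metabolism, 6 to purine synthesis (ADE1, ADE4, ADE6, ADE8, ADE13 and ADE17) and 4 to nucleobase uptake (FCY2, FCY21, FCY22 and FUR4), out of 6775 genes in the deposited count table. They were found by their gene names, and they had been selected on their measured levels and +Rap/-Rap ratios in these same samples, so their values are given as a description with standard errors and without a test. RNA-seq was carried out on 12 samples of a *Saccharomyces cerevisiae* Cyc8p anchor-away strain (Cyc8-AA), a Mata strain of the HHY221 background. Every sample, controls included, carries the tor1-1 allele, the fpr1::loxP-LEU2-loxP disruption, the anchor RPL13A2xFKBP12::loxP and the tagged gene CYC8-FRB::HIS3. In this strain rapamycin tethers the FRB-tagged Cyc8p to a ribosomal protein, which carries it out of the nucleus, and the tor1-1 and fpr1 alleles make growth insensitive to the drug. The labels name 1 such strain, so no second clone was compared, and they name no allele of the 10 genes.

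All cultures grew in YPD with 2% glucose at 30 °C, and additions were made at an OD600 of about 0.3, with RNA taken 4 h later. The 4 groups of 3 biological replicates were -Rap (no rapamycin, no mannose), +Rap (rapamycin at 1 µg/ml), -Rap+Man (mannose at 0.25 M) and +Rap+Man (both). Cells depleted of Cyc8p flocculate, and mannose prevents flocculation, so the +Rap/-Rap ratio is called the Flo+ ratio and the +Rap+Man/-Rap+Man ratio the Flo- ratio. The question of the study was which effects of Cyc8p depletion depend on flocculation. Total counts ran from 26125728 to 51088194 per sample, and every one of the 10 genes passed the filter on low counts in each comparison. FLO11, a flocculin gene repressed by Tup1-Cyc8, was higher by 9.84 (SE 0.16) on the log2 scale in the Flo+ ratio and by 10.33 (SE 0.17) in the Flo- ratio, which checks the rapamycin labels. CYC8 mRNA itself checks nothing, because anchor-away moves the protein.

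Purines are built step by step on phosphoribosyl pyrophosphate (PRPP), ending in inosine monophosphate, from which AMP and GMP are made. In yeast the ADE genes are activated by Bas1p with its partner Pho2p when purines are scarce and are switched down when adenine is taken up, and Fcy2p, the main purine and cytosine permease, brings adenine, guanine, hypoxanthine and cytosine into the cell. Fcy21p and Fcy22p are its close relatives with an unsettled role in transport, and Fur4p is the uracil permease. YPD is a rich medium that supplies nucleobases.

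The stretches of promoter shown here carry the core TGACTC that Bas1p and Gcn4p sites share. The measured levels do not enter this feature. The ADE genes are activated by Bas1p, however, so the core before them is not independent of their choice as purine synthesis genes. Each stretch is 30 bases of the RefSeq R64 assembly of strain S288C, written 5′ to 3′ on the strand of the gene, with the core, or its reverse complement, in capitals.
ADE4 (chrXIII:867431-867460, minus strand): gacccgatgtatTGACTCttcctgaccgaa
ADE8 (chrIV:1289016-1289045, minus strand): atgagTGACTCgttgctagTGACTCtgacc
ADE6 (chrVII:616224-616253, minus strand): ttcaaccgttccTGACTCtttcctgctgac
ADE1 (chrI:169141-169170, plus strand): ttattcacGAGTCAgtcTGACTCttgcgag
ADE13 (chrXII:844054-844083, plus strand): cctccgcgagcaGAGTCAaacttcaaacaa
ADE17, far match (chrXIII:509570-509599, minus strand): atttgcagttttTGACTCttttttccttag
ADE17, near match (chrXIII:509440-509469, minus strand): ccagaaatgaatTGACTCctctcataactt
FCY2 (chrV:268502-268531, minus strand): attcgtacaaatTGACTCtttttcagaaat

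In the 500 bases before the start codon, all 6 ADE genes held the core on either strand, and of the 4 permease genes FCY2 did. Over 6000 promoters of the same length, 12.7% held it. The other purine synthesis genes were not looked at separately, so nothing particular to these 6 is read from it. The core began 357 bases before the start codon in ADE4, 276 in ADE6, 216 in ADE13 and 406 in FCY2. ADE8 held it 181 and 167 bases before the start, ADE1 226 and 217, and ADE17 307 and 177. In the shorter window of 250 bases before to 50 after the start, 4 ADE genes (ADE1, ADE8, ADE13 and ADE17) and no permease gene held it, beside 7.98% of 6001 promoters; the longer window was chosen after this one was seen. The extended core TGACTCA, the usual Gcn4p site, was in none of the 10 windows of either length (2.73% and 4% of all promoters). GATAAG, a core of GATA factors of nitrogen metabolism, was in the longer window of ADE17, FCY2, FCY21, where it occurred 4 times, and FCY22 (22.8% of all promoters), and in the shorter window of ADE6, ADE17, FCY2 and FCY21 (14.7%), that of ADE6 lying within the coding sequence. FUR4 held none of these motifs. TGACTCA contains TGACTC, so each match of the longer motif is also one of the shorter. A match is a run of letters and was not shown to be a bound site.

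**Figure D1:**
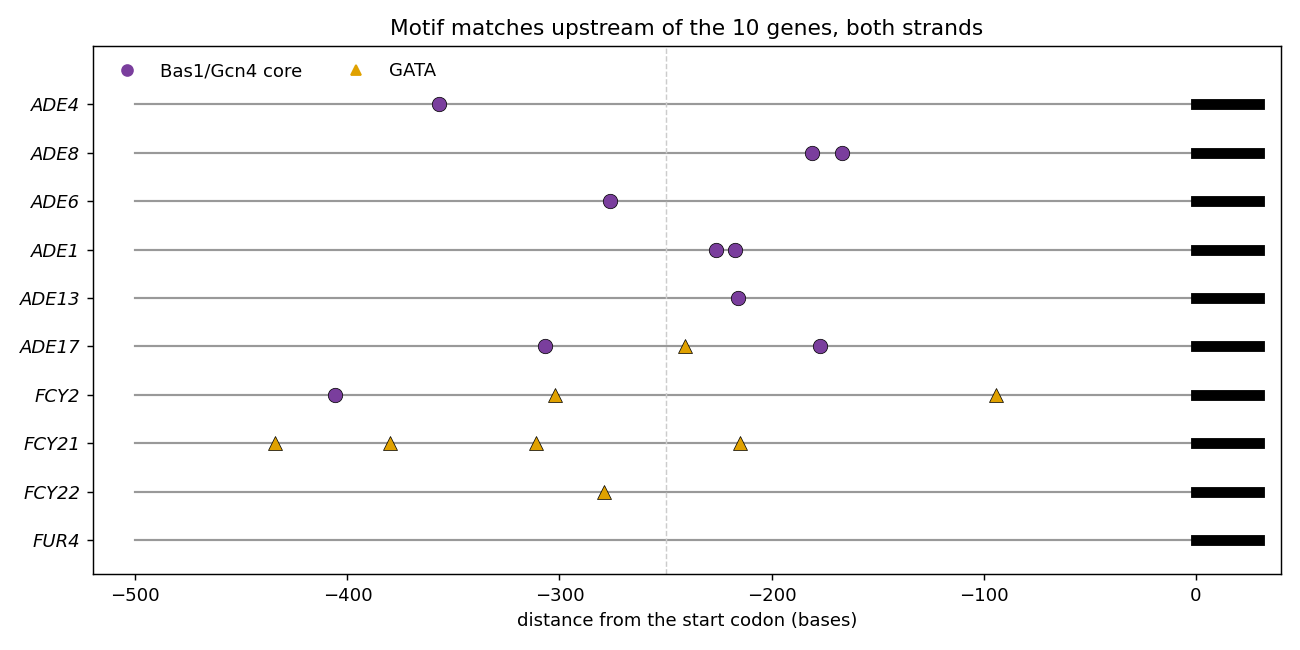
Positions of the first base of each motif match, in bases from the start codon (x axis), for the 10 genes (y axis); circles are the core shared by Bas1p and Gcn4p sites, triangles the GATA core, the black block is the start of the coding sequence and the dashed line marks 250 bases. All 6 ADE genes have 1 or 2 circles, FCY2 has 1, and the GATA core lies mostly before the FCY genes.

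The ADE genes lie on separate stretches of the genome. In R64 ADE1 (YAR015W) is at chrI:169375-170295, ADE4 (YMR300C) at chrXIII:865559-867091, ADE6 (YGR061C) at chrVII:611889-615965, ADE8 (YDR408C) at chrIV:1288215-1288859, ADE13 (YLR359W) at chrXII:844282-845730 and ADE17 (YMR120C) at chrXIII:507502-509280. FCY21 (YER060W, chrV:274567-276153) and FCY22 (YER060W-A, chrV:276572-278164) are neighbours on the same strand with 418 bases between them. FCY2 (YER056C) is at chrV:266512-268113 and FUR4 (YBR021W) at chrII:281443-283344. None of the 10 overlaps another annotated gene. FCY2 and FCY22 share 83.1% of aligned coding bases, FCY2 and FCY21 73.9%, FCY21 and FCY22 74.4%, and ADE17 and its isozyme gene ADE16 74.8%, so none has a copy of at least 90% identity. Per kilobase of coding sequence FCY2 stood 39.1 (+Rap) to 184 (-Rap+Man) times above FCY22. Whether a small share of FCY2 reads was assigned to FCY22 was not tested.

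Of the 6 ADE genes, 5 were lower after Cyc8p depletion in both experiments, at log2 ratios of -0.72 to -0.34 without mannose and of -0.88 to -0.58 with mannose, and ADE17 had a higher mean in both. In the fit across all genes (limma, Benjamini-Hochberg adjusted p of at most 0.05) 3 ADE genes were counted as lower and 1 as higher in the Flo+ ratio, where 20.6% of 6100 tested genes were lower and 22.8% higher. For the Flo- ratio 5 were counted as lower and none as higher, beside 28.8% and 24.8% of 6325 tested genes. No ADE gene passed the study's thresholds (adjusted p of at most 0.01 and a log2 change of at least 1), which 2.13% of genes passed as lower and 11% as higher in the Flo+ ratio, and 2.97% and 14.3% in the Flo- ratio. Depleted and control samples did not overlap in 27.9% of tested genes as lower and 28.4% as higher in the Flo+ ratio. In the Flo- ratio those shares were 33.8% and 28.1%. All these shares are background only, and nothing is read from the counts or the lack of overlap beside them, because the genes were chosen on the same ratios. Over the 10 genes together, the 5 counted as lower in the Flo+ ratio became 7 without -Rap replicate 3, 3 without -Rap replicate 1 or 2 or +Rap replicate 1 or 3, and 2 without +Rap replicate 2. The number of all tested genes called lower moved as well, from 1259 of 6100 in the main fit. It was 1730 of 6127 without -Rap replicate 3 and 691 of 6120 without +Rap replicate 2. Nothing particular to the 10 genes is read from these changes. In bulk RNA, fewer cells expressing a gene and less RNA per cell cannot be told apart.

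ADE4 encodes the PRPP amidotransferase that catalyses the first committed step of purine synthesis. Its normalized read counts (counts scaled to a common library size) were 3731, 3371 and 1614 in replicates 1 to 3 of -Rap and 1968, 1712 and 1578 in +Rap. With mannose they stood at 5420.4, 3917 and 4802 in -Rap+Man and 2419, 2918 and 3184 in +Rap+Man. The groups overlapped without mannose, because -Rap replicate 3 sat among the +Rap samples, and did not overlap with mannose. ADE4 was 1.56-fold lower in the Flo+ ratio (log2 -0.64, SE 0.29) and 1.66-fold lower in the Flo- ratio (log2 -0.73, SE 0.16). On leaving out 1 sample in turn the Flo+ value ranged from -1.02 (SE 0.11), without -Rap replicate 3, to -0.42, without -Rap replicate 1, and with the replicate number as a block ADE4 was also counted as lower in the Flo+ ratio.

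ADE8 encodes the glycinamide ribonucleotide transformylase, a folate-dependent step. It was measured at 2141, 2016 and 1782 in -Rap against 1501, 1221 and 1429 in +Rap. The corresponding values with mannose were 1573, 1843 and 1918 against 933, 1063 and 906. Depleted and control samples were separate in both experiments, and the log2 ratio was -0.52 (SE 0.12) in Flo+ and -0.88 (SE 0.13) in Flo-, the lowest of the 10 genes in the Flo- experiment.

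ADE6 encodes the formylglycinamidine ribonucleotide synthetase, the longest of the 10 genes at 4077 bases. Its counts were 13732, 14879.5 and 10453.5 in -Rap and 10284, 10476 and 9747 in +Rap, and with mannose 13390.5, 10338 and 12023 in the controls and 8325, 8086 and 7445 in the depleted samples. The groups touched without mannose, at -Rap replicate 3 and +Rap replicate 2, and were separate with mannose. The log2 ratio was -0.34 (SE 0.15) in Flo+, the smallest of the 5, and -0.58 (SE 0.13) in Flo-.

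ADE1 encodes the SAICAR synthetase. Without mannose its counts were close within each group, 3014, 2975 and 3155 in -Rap and 2441, 2145 and 2567 in +Rap. With mannose the controls spread over 3895, 2538 and 3312, while the depleted samples gave 1914, 2214 and 1946. The groups did not overlap in either experiment, and the log2 ratio was -0.36 (SE 0.11) in Flo+ and -0.66 (SE 0.17) in Flo-.

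ADE13 encodes adenylosuccinate lyase, which acts both before inosine monophosphate and on the branch to AMP. Relative to its level it gave the tightest -Rap replicates among the 6 ADE genes, 8464, 8807 and 8694, against 5608, 4949 and 5256 in +Rap. With mannose the values were 7773, 7087 and 8280.5 in the controls and 4253, 4774 and 4680.3 after depletion. All depleted samples lay below all controls, at a ratio of 1.64-fold (log2 -0.72, SE 0.10) in Flo+ and 1.69-fold (log2 -0.75, SE 0.12) in Flo-, so that the ratios of the 2 experiments differed by -0.04 (SE 0.14).

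ADE17 encodes one of a pair of isozymes of AICAR transformylase and inosine monophosphate cyclohydrolase, which carry out the last steps. It was measured at 2393, 1756 and 2633 in -Rap and 3463, 3934 and 3747 in +Rap, with no overlap, a 1.66-fold higher level (log2 0.73, SE 0.16). In mannose the controls spread from 1617 through 2189 to 3501, and the depleted samples stood at 3381, 3390.4 and 3110.4. The groups overlapped there because of -Rap+Man replicate 1. The log2 Flo- ratio was 0.51 (SE 0.24), and ranged from 0.25 to 0.81 on leaving out 1 sample in turn, the lowest without -Rap+Man replicate 2 and the highest without replicate 1 (SE 0.15). With the replicate block ADE17 was also counted as higher in the Flo- ratio, although pair 1 showed a log2 ratio of -0.05 beside 1.07 and 0.51 in the other pairs. ADE16, the other isozyme gene, had mean counts of 9012 in -Rap and 11072 in +Rap (log2 0.30, SE 0.12, adjusted p = 0.076 by limma), and of 7349 and 7155 with mannose (log2 -0.03, SE 0.13, adjusted p = 0.84 by limma). Per kilobase of coding sequence ADE16 stood at 5074 and ADE17 at 1271 normalized counts in -Rap.

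**Figure D2:**
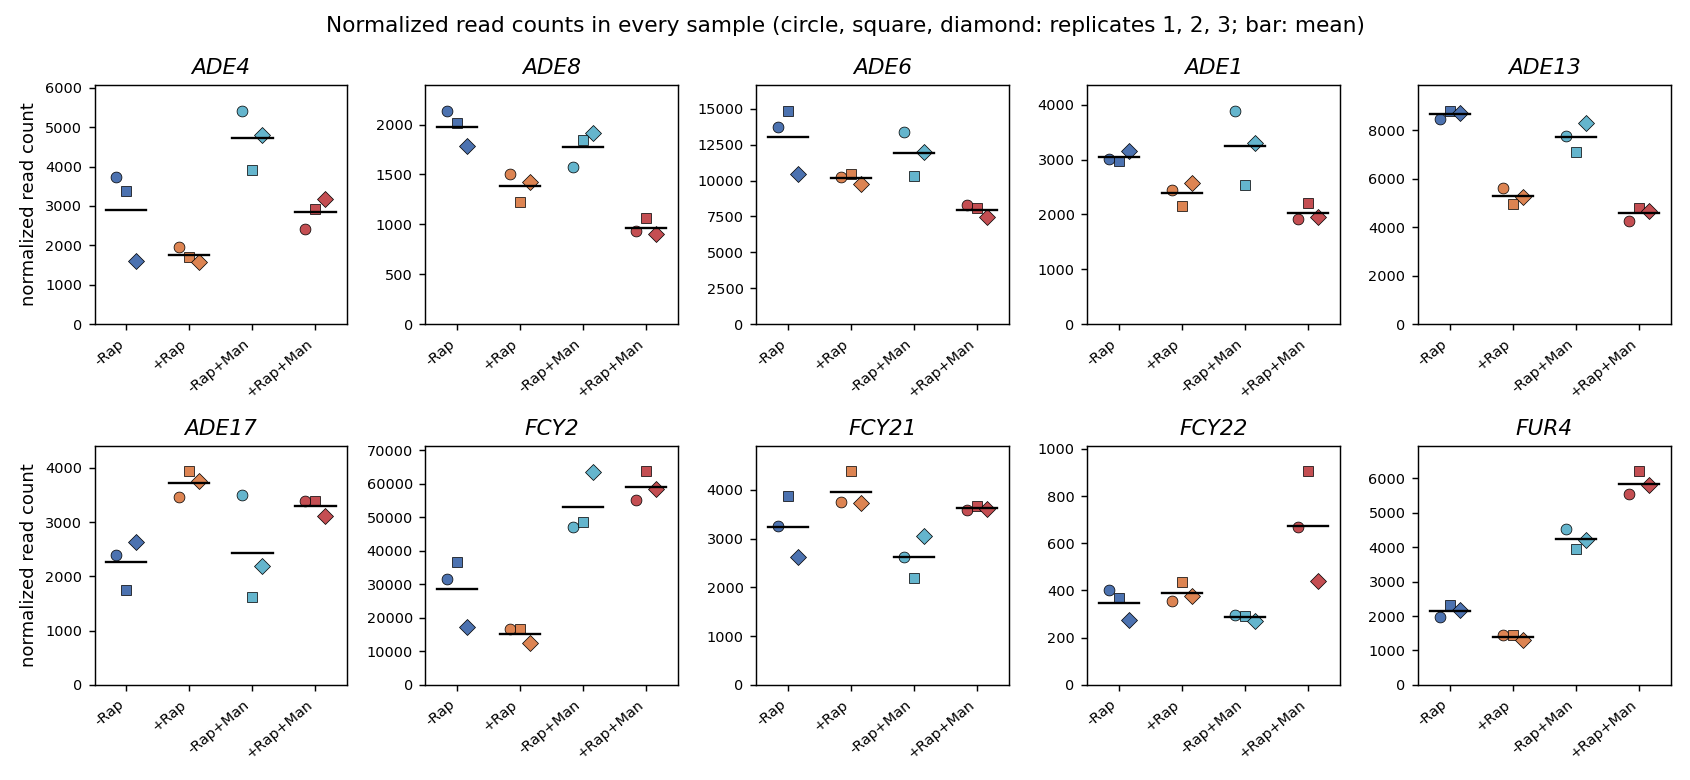
Normalized read counts (y axis, linear from 0) of the 10 genes in the 4 groups (x axis). Circle, square and diamond are replicates 1, 2 and 3, which within an experiment are taken to mark a culture divided between the treatments, and the bar is the mean of 3. The depleted samples are lower for ADE8, ADE1 and ADE13 in both experiments, those of ADE17 are higher without mannose and overlap the controls with it, and FUR4 is lower after depletion without mannose and higher with it.

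The permease genes did not move as a set. Without mannose FCY2 and FUR4 were lower after depletion and FCY21 and FCY22 stood at log2 ratios of 0.30 and 0.17 with overlapping groups, while with mannose all 4 had ratios above 1. The fit across all genes counted 2 of the 4 as lower and none as higher in the Flo+ ratio, and none as lower and 3 (FCY21, FCY22 and FUR4) as higher in the Flo- ratio, beside the background shares given above for the ADE genes. FCY22 in the Flo- ratio passed the study's thresholds.

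FCY2 was by far the most abundant of the 10 genes per length. Its level per kilobase was 17821 ± 6269 (SD, n = 3) in -Rap, 8.71 times that of FCY21, 81.5 times that of FCY22 and 15.8 times that of FUR4. Its normalized counts were 31638, 36685 and 17324.5 in -Rap and 16790.1, 16614.5 and 12375 in +Rap. The groups were separate, but -Rap replicate 3 lay close to the depleted samples, and the log2 ratio of -0.85 (SE 0.27) became -1.17 (SE 0.15) without it and -0.63 without -Rap replicate 2. With mannose the counts were 47006, 48555 and 63485 in the controls and 55241, 63727 and 58462 after depletion, which overlapped (log2 0.17, SE 0.16).

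FCY21 was measured at 3249, 3867 and 2626 in -Rap and 3757, 4379.8 and 3729 in +Rap, which overlapped (log2 0.30, SE 0.16). With mannose it was at 2627, 2181 and 3063 in the controls and at 3589.9, 3669.5 and 3615 after depletion. The depleted samples were all higher, by a log2 of 0.48 (SE 0.14). Its neighbour FCY22 was the least abundant of the 10, with 402, 370.0 and 273 normalized counts in -Rap and 354, 435 and 375 in +Rap, again overlapping (log2 0.17, SE 0.17; 0.00 without -Rap replicate 3). With mannose FCY22 stood at 297, 293 and 270.0 in the controls and at 671, 905 and 441 after depletion, 2.24-fold higher (log2 1.16, SE 0.24). All 3 depleted samples were above the controls and spread over a wide range. Without -Rap+Man replicate 2 or 3, or +Rap+Man replicate 1 or 2, it no longer passed the study's thresholds, at log2 values between 0.92 and 1.44 over all samples left out in turn.

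FUR4 differed most clearly between the experiments. Without mannose it was at 1972, 2313 and 2167 in -Rap and 1449, 1443 and 1299.8 in +Rap, 1.54-fold lower after depletion (log2 -0.62, SE 0.11). With mannose it was at 4521, 3955 and 4204 in the controls and 5544, 6207 and 5804 after depletion, 1.38-fold higher (log2 0.47, SE 0.11). The groups were separate in both experiments, and the sign of the ratio was the same in all 3 pairs of same-numbered samples of each. The pair log2 ratios were -0.44, -0.68 and -0.74 against 0.29, 0.65 and 0.46.

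The difference between the ratios, which uses the same control and depleted samples as the ratios themselves, was computed as Flo- minus Flo+. It was 1.09 (SE 0.15) for FUR4, 1.02 (SE 0.34) for FCY2, 1.00 (SE 0.32) for FCY22 and 0.18 (SE 0.22) for FCY21 on the log2 scale. For the ADE genes it ran from -0.36 (SE 0.18) in ADE8 to -0.04 (SE 0.14) in ADE13, with ADE4 at -0.08 (SE 0.36), ADE6 at -0.24 (SE 0.20), ADE1 at -0.31 (SE 0.21) and ADE17 at -0.23 (SE 0.32). All 4 permeases lay on the positive side and all 6 ADE genes on the negative side, the latter by no more than 2 standard errors. Of the 10, FUR4 was counted as higher, and none as lower, beside 6.87% and 7.17% of 6403 tested genes, and FUR4 was also the only one past the study's thresholds (2.61% higher, 1.16% lower). With the replicate block the count rose to 3, adding FCY2 and FCY22, and without -Rap replicate 3 the FCY2 difference was 1.34 (SE 0.24). That count was 3 as well without -Rap replicate 3, and 2 without -Rap+Man replicate 3 (FCY2 and FUR4) or +Rap+Man replicate 3 (FCY22 and FUR4). Over all tested genes 440 of 6403 were higher in the main fit and 575 of 6403 with the block. The number was 516 of 6456 without -Rap replicate 3, 454 of 6423 without -Rap+Man replicate 3 and 327 of 6416 without +Rap+Man replicate 3. Among the ADE genes the sign of the difference was not stable, since ADE4 went to 0.30 (SE 0.22) without -Rap replicate 3 and to 0.02 (SE 0.39) without -Rap+Man replicate 1, ADE17 went to 0.07 (SE 0.23) without the latter sample, and ADE13 reached 0.02 on leaving out single samples.

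**Figure D3:**
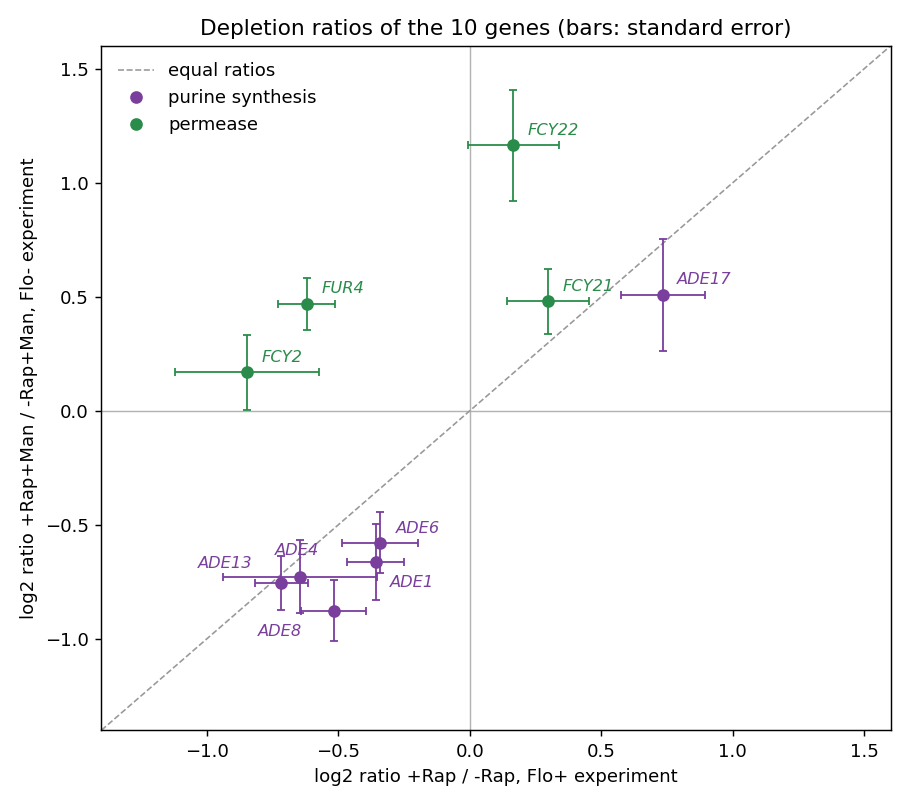
The log2 Flo+ ratio (x axis) and log2 Flo- ratio (y axis) of the 10 genes, purple for purine synthesis and green for permeases, with bars of 1 standard error and a dashed line of equal ratios. The 5 ADE genes other than ADE17 lie together at negative values on both axes, ADE17 lies at positive values on both, and FUR4 and FCY2 lie at a negative Flo+ and a positive Flo- ratio.

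Between the control groups, -Rap+Man against -Rap, which also enter the ratios, 3 of the 10 genes were counted as higher with mannose (25.7% of 6403 tested genes were) and none as lower (24.7%). These were FUR4, 1.97-fold higher (log2 0.98, SE 0.11), FCY2, 1.93-fold higher (log2 0.95, SE 0.24), and ADE4, 1.71-fold higher (log2 0.78, SE 0.26). The control samples of these 3 genes did not overlap, beside 26.9% of the 6403 tested genes that were higher with mannose without overlap. Without -Rap replicate 3 the values of ADE4 and FCY2 were 0.40 (SE 0.16) and 0.62 (SE 0.18), while that of FUR4 was 0.98 (SE 0.11), and FCY21 was then counted as lower at -0.45 (SE 0.14). None passed the study's thresholds, which 11% of genes passed as higher and 10.6% as lower. The other 7 genes lay between -0.30 (FCY21, SE 0.15) and 0.07 (ADE1, SE 0.15). The experiments were run at different times, with paired-end reads without mannose and single-end reads with it, so mannose, run and read type cannot be told apart in this comparison, and the levels in the 2 experiments share that limit.

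By mean level, ADE8, ADE6 and ADE13 ran -Rap, -Rap+Man, +Rap, +Rap+Man from high to low. The 4 groups of ADE13 were separate from their neighbours in that order, the control groups of ADE8 overlapped, and in ADE6 -Rap+Man overlapped both its neighbours. ADE1 had -Rap+Man first, and its levels overlapped between the control groups and between the depleted groups. FCY2 and FUR4 had their highest level in +Rap+Man and their lowest in +Rap. The FUR4 groups were all separate, at means of 5852 ± 334, 4227 ± 284, 2150.4 ± 171 and 1397 ± 84.5 (SD, n = 3), and the mannose groups of FCY2 overlapped. In ADE4, -Rap+Man (4713 ± 756, SD, n = 3) was above -Rap and +Rap+Man (2905 ± 1133 and 2840.2 ± 389), which overlapped, and +Rap (1753 ± 198) was lowest. ADE17 and FCY21 had +Rap first and +Rap+Man second without overlap, and FCY22 had +Rap+Man first and the other groups overlapping in turn.

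Across the 12 samples, centred within each experiment, the 5 ADE genes other than ADE17 correlated with each other at Pearson r from 0.70 to 0.93 (10 pairs, median 0.84). ADE17 correlated with them at -0.76 to -0.36, and the 4 permeases with each other at 0.14 to 0.71. FCY21 and FCY22, the neighbours, gave 0.71 and FCY2 and FUR4 0.69. These values are descriptive, since the samples share the depletion and, if the replicate numbers mark cultures, by pairs the culture. Some samples held the lowest or highest value of their group in several genes. The genes correlate, so such counts are not independent, and nothing is read from them beside the shares of all genes. Of the 10 genes, -Rap replicate 3 held the lowest -Rap value in 6 (60%), beside 42.8% of 5987 genes, and -Rap+Man replicate 2 held the lowest -Rap+Man value in 7 (70%), beside 31.5%. In the depleted mannose group, +Rap+Man replicate 2 held the highest value in 8 (80%), beside 31.4%, and +Rap+Man replicate 1 the lowest in 6 (60%), beside 26.5%. Over 24 further genes of purine synthesis, one-carbon supply and PRPP supply, -Rap replicate 3 was the lowest -Rap sample in 14 (58.3%, beside 42.8% of all) and -Rap replicate 2 the highest in 15 (62.5%, beside 33.6%). With mannose, -Rap+Man replicates 1 and 3 were each the highest in 12 (50%, beside 46.7% and 31.1%), the former near the share of all genes. Some pyrimidine genes also differed in -Rap replicate 3. URA1, the dihydroorotate dehydrogenase, was at 44432 there against 6384 and 6377 in the other -Rap samples, URA3 at 9378 against 3135 and 2878, and FUR1, the uracil phosphoribosyltransferase, at 4580 against 11587 and 13196. URA2 (72956 against 26825.5 and 32702), URA4 (6567 against 3106 and 2788) and URA10 (1146 against 406 and 532) were also higher there. PPR1 was lower (402 against 705 and 810). These pyrimidine genes were named after their values were seen. Others of the pathway did not differ there, such as URA5 at 19034 against 18704 and 21472 and URA6 at 3662 against 3771.5 and 3975. Without -Rap replicate 3 the log2 Flo+ ratio was -0.59 for ADE8, -0.49 for ADE6, -0.33 for ADE1, -0.71 for ADE13, 0.85 for ADE17, 0.15 for FCY21 and -0.61 for FUR4, and those of ADE4, FCY2 and FCY22 are given above.

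**Figure D4:**
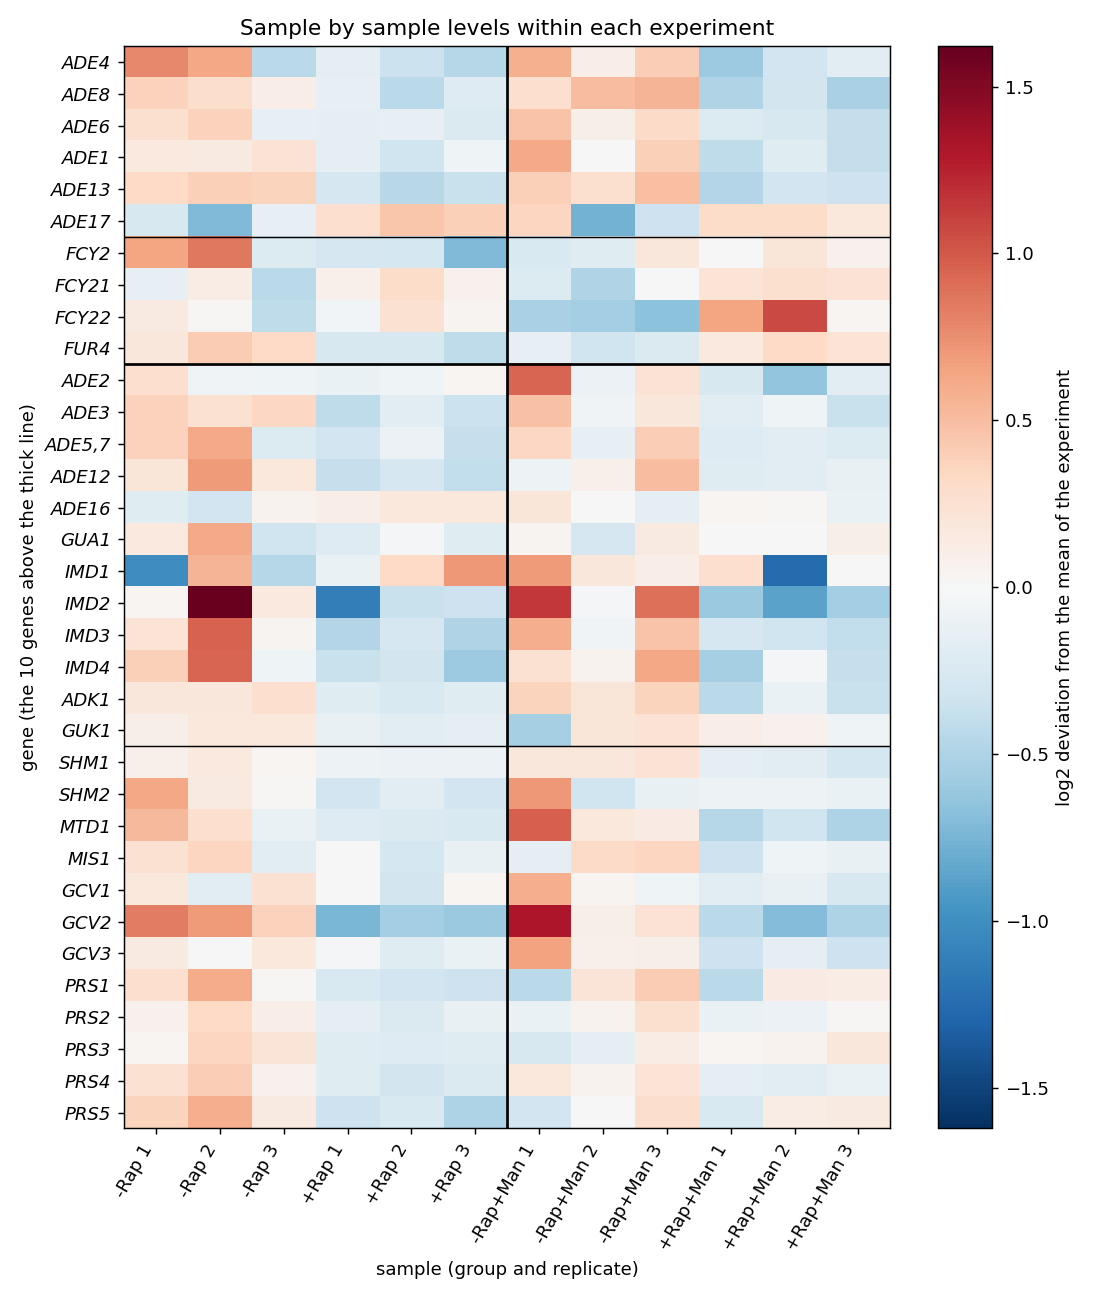
Deviation of each sample from the mean of its experiment on the log2 scale (colour) for the 10 genes above the thick line and 24 further genes of purine synthesis, one-carbon supply and PRPP supply below it (rows), in 12 samples (columns), with a vertical line between the experiments. The controls are mostly red and the depleted samples mostly blue. Among the genes with higher depleted means are ADE17, FCY21 and FCY22 in both experiments, FUR4 with mannose and ADE16 without it. In ADE4 and FCY2 -Rap replicate 3 has the colour of the depleted samples.

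The rest of purine synthesis was taken from a list of 12 further genes. Listed genes that passed the study's thresholds in a comparison are named, and ADE2, ADE3, ADE12, ADE16, IMD3, IMD4 and the PRS, salvage, pyrimidine and permease genes named beside them for smaller changes were chosen after their values were seen. In the Flo+ ratio 7 of 12 fell and none rose (median log2 -0.47, beside -0.02 over all tested genes), and in the Flo- ratio 5 of 12 fell and none rose (median -0.51, beside -0.08), or 8 of 12 with the replicate block. Over all tested genes 20.6% fell and 22.8% rose in the Flo+ ratio and 28.8% fell and 24.8% rose in the Flo- ratio, and the counts of this and the lists below stand beside those shares. Leaving out 1 sample moved the numbers over all tested genes too. Between 671 and 1730 fell in the Flo+ ratio and between 1433 and 1950 in the Flo- ratio. Between 1379 and 1671 rose in the Flo- ratio, and 286 to 516 were higher in the difference of the ratios. Leaving out any one +Rap sample brought the first count to 3, and leaving out -Rap replicate 3 to 9, while leaving out -Rap+Man replicate 3 or +Rap+Man replicate 1 brought the second to 3 and +Rap+Man replicate 3 to 2. ADE3, which supplies one-carbon units on folate, fell without mannose (log2 -0.63, SE 0.11, adjusted p = 0.0028 by limma), as did ADE12, the adenylosuccinate synthase at the branch to AMP (log2 -0.71, SE 0.15, adjusted p = 0.0080 by limma). At the branch to GMP, the IMP dehydrogenase genes IMD3 and IMD4 fell in both experiments, by 0.82 and 0.84 without mannose and by 0.67 and 0.63 with it. IMD2, another gene of that enzyme, ran at 30043, 13217 and 25127 in -Rap+Man and 8888, 7415 and 9251 in +Rap+Man, and fell by 1.34 (SE 0.28, adjusted p = 0.0035 by limma) in the Flo- ratio, and by 1.21 (SE 0.42, adjusted p = 0.046 by limma) in the Flo+ ratio. Its -Rap samples spread from 4418 to 13325, and its mannose controls stood above the -Rap controls by a log2 of 1.71 (SE 0.39, adjusted p = 0.0030 by limma). IMD2 and IMD3 share 89% of their bases and reads of this family may be split between them. ADE2 was at a log2 of -0.10 (adjusted p = 0.55 by limma) without mannose and fell by 0.72 (adjusted p = 0.040 by limma) with it.

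The activators of the pathway, BAS1 and PHO2, were at log2 values of 0.03 and 0.15 in the Flo+ ratio and passed no test there. In the Flo- ratio BAS1 was at -0.11 and PHO2 fell by 0.63 (SE 0.21, adjusted p = 0.030 by limma), from counts of 1101, 743 and 714 to 646, 454 and 536, a call that was lost without -Rap+Man replicate 1 or +Rap+Man replicate 2 or 3. Between the controls BAS1 was higher with mannose (log2 0.67, adjusted p = 0.0012 by limma) and PHO2 lower (log2 -0.71, adjusted p = 0.0059 by limma).

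One-carbon units and PRPP are the building material of the ring. Of 12 genes that supply them 7 fell without mannose and 5 with it, and none rose in either (medians -0.43 and -0.32), beside 20.6% and 28.8% of all tested genes that fell. With the replicate block 7 fell with mannose. Leaving out +Rap replicate 2 or 3 left 2 of the 7 and +Rap replicate 1 left 4, and leaving out +Rap+Man replicate 1 or 3 left 3 of the 5. GCV2, the glycine decarboxylase subunit of the mitochondrial glycine cleavage system, fell most in the Flo+ ratio, from 6740, 6118 and 4890.2 to 2264, 2580 and 2483 (log2 -1.27, SE 0.14, adjusted p = 2.9e-04 by limma). It also fell in the Flo- ratio (log2 -1.10, SE 0.29, adjusted p = 0.011 by limma). Of the 5 PRPP synthetase genes all 5 fell without mannose, by 0.33 (PRS2) to 0.73 (PRS5), and PRS4 alone passed the test with mannose (log2 -0.30). The difference of the ratios was called as higher in 1 of the 12, PRS3 (log2 0.58, SE 0.17, adjusted p = 0.043 by limma), or in 2 with the replicate block. It was in none without -Rap replicate 2, any +Rap sample, -Rap+Man replicate 1 or 2, or +Rap+Man replicate 2 or 3, and in 2 without -Rap+Man replicate 3.

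Salvage genes moved both ways. AAH1, the adenine deaminase, fell in the Flo+ ratio from 4870.4, 8826 and 4647 to 2828, 2772 and 2672 (log2 -1.08, SE 0.23, adjusted p = 0.0071 by limma). It kept the study's thresholds without -Rap replicate 3 and lost them without any other one sample. HPT1, the hypoxanthine-guanine phosphoribosyltransferase, fell by 1.26 (SE 0.27, adjusted p = 0.0040 by limma) in the Flo- ratio, and by 1.35 (adjusted p = 0.012 by limma) in the Flo+ ratio. APT2, a relative of the adenine phosphoribosyltransferase gene APT1, rose in both, from a mean of 2705 to 7153 without mannose (log2 1.43, SE 0.18, adjusted p = 5.8e-04 by limma) and from 3720.4 to 15099 with it (log2 2.02, SE 0.13, adjusted p = 2.7e-06 by limma). GUD1, the guanine deaminase, was lower in the mannose controls than in the -Rap controls (log2 -1.48, SE 0.19, adjusted p = 3.8e-05 by limma). Of the 9 salvage genes 4 fell (AAH1, APT1, HPT1 and ADO1) and APT2 rose in the Flo+ ratio, and 3 fell (AAH1, AMD1 and HPT1) and APT2 rose in the Flo- ratio. The medians were -0.13 and 0.06, and over all tested genes 20.6% fell and 22.8% rose without mannose and 28.8% fell and 24.8% rose with it, so that the 3 of 9 with mannose is near the background. Leaving out -Rap+Man replicate 2 or 3 or any +Rap+Man sample left 2 of those 3.

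Among 14 genes of pyrimidine synthesis and salvage, 4 fell and 2 rose without mannose (20.6% and 22.8% of all tested genes), and 6 fell and 3 rose with it (28.8% and 24.8%), with medians of -0.48 and -0.35. The counts of 4, 2 and 3 of the 14 are near or below the background. The first count of 4 became 8 without -Rap replicate 3 and 2 without any one +Rap sample, which left 1 of the 2 that rose, as did leaving out -Rap replicate 1. With the replicate block 6 fell and 3 rose without mannose and 8 fell with it. The count of 6 became 4 with relative log expression scaling or without +Rap+Man replicate 3 or -Rap+Man replicate 2, 3 without +Rap+Man replicate 2, and 2 without -Rap+Man replicate 3 or +Rap+Man replicate 1. URA7, a CTP synthase gene, fell by 1.09 (SE 0.18, adjusted p = 0.0024 by limma) in the Flo+ ratio and by 0.68 (adjusted p = 0.019 by limma) in the Flo- ratio. URK1, the uridine kinase, fell by 1.07 (SE 0.12, adjusted p = 1.6e-04 by limma) in the Flo- ratio and by 0.93 (adjusted p = 0.0038 by limma) in the Flo+ ratio. URH1, a uridine nucleosidase, rose in the Flo- ratio from 1989.7, 2253 and 2160 to 5034, 5365 and 4516 (log2 1.22, SE 0.12, adjusted p = 5.8e-05 by limma). Its Flo+ ratio was also higher (log2 0.89, adjusted p = 2.6e-04 by limma). URA10, the minor orotate phosphoribosyltransferase gene, rose by 1.08 (SE 0.24, adjusted p = 0.0053 by limma) in the Flo- ratio and was lower in the mannose controls (log2 -1.19, SE 0.32, adjusted p = 0.0078 by limma), a value that became -0.76 without -Rap replicate 3.

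The remaining permeases of nucleobases, nucleosides and related compounds, 7 genes, were not among the genes described above. Their list was made with earlier results of these data known. In the Flo- ratio all 7 rose (median log2 0.77, beside 24.8% of all tested genes that rose), or 4 without -Rap+Man replicate 2, and in the Flo+ ratio 3 rose and 1 fell (median 0.20, beside 22.8% and 20.6%). The difference of the ratios was higher in 4 of the 7 (FUI1, FUN26, TPN1 and THI72, beside 6.87% of all tested genes) and lower in none, a count that dropped to 1 or 2 on leaving out any of 8 of the 12 samples. FUI1, the uridine permease and a relative of FUR4, ran at 11893, 13460.3 and 18554 in -Rap and 6313, 6450 and 5190 in +Rap, and with mannose at 12248, 11090.1 and 13544 in the controls and 17821, 15259 and 15784 after depletion. It fell by 1.27 (SE 0.18, adjusted p = 0.0011 by limma) without mannose and rose by 0.41 (SE 0.13, adjusted p = 0.028 by limma) with it. The ratios of the 2 experiments differed by 1.68 (SE 0.23, adjusted p = 5.7e-04 by limma). FUN26, a nucleoside transporter, was at 0.13 without mannose and rose by 0.77 with it. DAL4, the allantoin permease and another relative of FUR4, rose by 1.05 (SE 0.15, adjusted p = 0.0011 by limma) in the Flo+ ratio and by 0.95 in the Flo- ratio, and was lower in the mannose controls than in -Rap (log2 -1.10, SE 0.18, adjusted p = 2.8e-04 by limma).

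The thiamine transporter gene THI7 and its relative THI72 gave the largest changes of that list. THI7 rose from 2409, 4632 and 2879 to 15078, 17773 and 14396 without mannose (log2 2.30, SE 0.23, adjusted p = 1.6e-04 by limma) and from a mean of 5856 to 43598 with it (log2 2.89, SE 0.25, adjusted p = 2.3e-05 by limma). THI72 rose by 2.88 (SE 0.19, adjusted p = 1.7e-05 by limma) and 3.88 (SE 0.17, adjusted p = 3.1e-07 by limma). THI7 and THI72 share 84.3% of their bases.

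**Figure D5:**
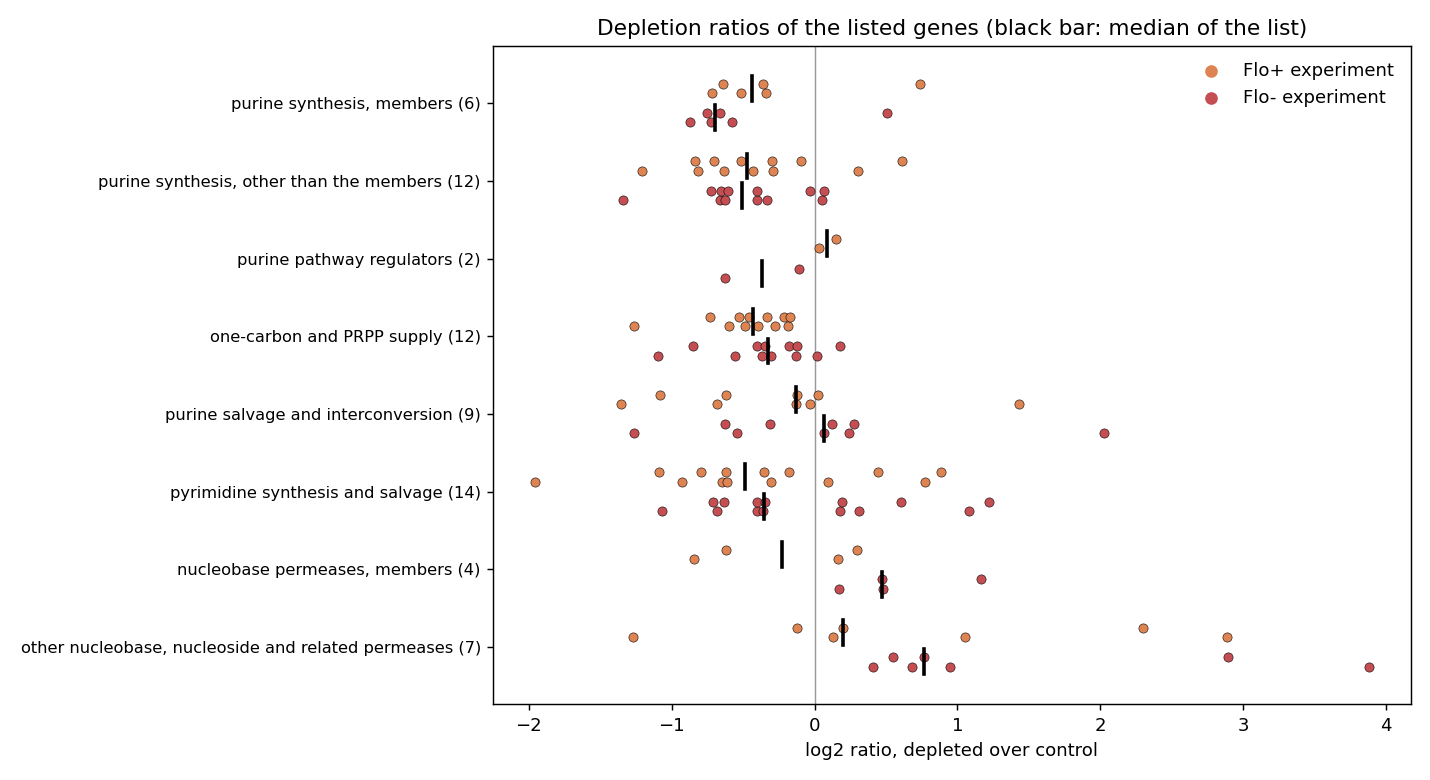
The log2 ratio of depleted over control samples (x axis) of every listed gene (points) by list (y axis, number of listed genes in brackets, "members" being the 10 genes described), orange for Flo+ and red for Flo-, with the median of each list as a black bar. The purine synthesis and one-carbon lists lie mostly below 0 in both experiments, and the permease lists lie above 0 in Flo-.

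The genes with the pattern most like the mean of the 6 ADE genes over the 12 samples, out of 5977 other genes, were RPL19A (Pearson r = 0.98), TGL3 (0.97), TAN1 (0.97), RPL19B (0.96) and MEP3 (0.96). RPL19A and RPL19B encode the same ribosomal protein, TGL3 a lipase and MEP3 an ammonium permease. Those most like FCY2 were NOP1 (0.95), a nucleolar protein gene, YPQ1 (0.94), KAP123 (0.94), SSB1 (0.94) and ELO3 (0.93). FCY21 was most like ECM3 (0.96), IZH3 (0.95), PFK1 (0.94), STP3 (0.94) and INA1 (0.94), and FCY22 like EOS1 (0.92), ROX1 (0.92), PDC1 (0.91), CHS7 (0.91) and THI3 (0.91). For FUR4 they were PAD1 (0.95), PHO5 (0.89), SVP26 (0.89), FUI1 (0.88) and HOM3 (0.88). These genes were picked for their likeness to FUR4, so sharing its change of sign comes with the choice and is no separate result. The log2 Flo+ and Flo- ratios were -0.57 and 0.37 for PAD1 and -0.86 and 1.33 for PHO5, a secreted acid phosphatase gene. They were -0.32 and 0.44 for SVP26, -1.27 and 0.41 for FUI1, and -0.68 and 0.33 for HOM3.

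The cells were labelled Mata, and the summed level of 6 MATa marker genes (STE2, MFA1, MFA2, STE6, BAR1 and AGA2) was 35984 in -Rap, 18997 in +Rap, 67966 in -Rap+Man and 112731 in +Rap+Man, against 1068 to 1521 for 4 markers of MATalpha cells. Of the 6, 3 fell and 1 rose in the Flo+ ratio, and 1 fell and 3 rose in the Flo- ratio. STE2, the defining receptor gene, was at mean levels of 10012 to 40919, and STE3, its MATalpha counterpart, at 47.1 to 125. The MATalpha marker SAG1 was higher, at means of 861 (-Rap) to 1217 (+Rap+Man). In -Rap it stood above the MATa marker MFA1 (493). MF(ALPHA)2, another MATalpha marker, had means of 117 in -Rap and 10.9 in -Rap+Man. STE6 and BAR1 fell past the study's thresholds in the Flo+ ratio (log2 -1.14 and -1.57), and MFA1, MFA2 and AGA2 rose past them in the Flo- ratio (1.84, 1.57 and 1.90). MF(ALPHA)1, the alpha pheromone gene and a MATalpha marker, also rose there (log2 3.70), from 6.62 to 17.1 normalized counts in the controls to 160 to 190 in the depleted samples. The MATa sum thus moved in the same direction as FUR4 in both experiments, and its part in the permease values was not tested.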

How the data were processed

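Total RNA (hot phenol extraction, rRNA depletion, strand-specific libraries) was sequenced from 12 yeast samples. The authors trimmed reads with fastp 0.20.0, aligned them with STAR 2.7.3 to the S288c genome from Ensembl and deposited 2 tables, whose values are in an own unit (other) because commas separate groups of digits: raw counts per gene, analysed here, and the same counts divided by DESeq2 size factors, used here only as a check of the samples. The counting tool, its strand setting and the Ensembl release are not given in the sources used here. The second table also holds the authors' fold changes and p-values for the comparisons, which were not used. Reads were paired-end for the samples without mannose and single-end for those with it.

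Raw counts were scaled by TMM (trimming 30% of ratios and 5% of levels) to the mean library, and log2(value + 2) was fitted by limma 3.58.1 in R 4.3.3 (lmFit, eBayes with trend) with Benjamini-Hochberg adjustment over all tested genes; fold changes of low genes are understated on this scale. A gene was tested if 3 or more samples reached a level worth 10 counts at median depth and its counts summed to 15 or more. Each ratio was fitted on its own 6 samples, and the difference of the ratios and the comparison of the controls on all 12. The procedure was also run on simulated counts with the same dispersion for all genes and no shared cultures. That run does not show how it behaves on these samples. The members and lists were chosen with earlier results of these data known. The text names the 10 genes, listed genes past the study's thresholds in any comparison, the 5 genes most correlated with each pattern, and CYC8, FLO11 and others where it says so.

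Replicates were labelled biological; each culture was divided between treatments, per the study's methods. Deviations from group means of samples with the same number correlated at 0.20, 0.14 and 0.26 (Flo+) and 0.51, 0.22 and 0.27 (Flo-) over 5987 genes. Samples with different numbers correlated at -0.26 to 0.09 (Flo+) and -0.37 to 0.14 (Flo-). Each sample correlated best with the one of its own number, but most values were low. Pairing by number, as in the replicate block, is therefore an assumption. The main fit did not use it. The block made some standard errors smaller (FCY2 in the Flo+ ratio, from 0.27 to 0.15) and others larger (ADE13 there, from 0.10 to 0.13). The alternatives were another scaling, 2 other filters, 0.5 counts added, voom weights, thinning to the smallest library, the replicate block and leaving out each sample. Promoters and coordinates came from RefSeq R64, which held 6216 of the 6775 genes.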

Additional observations from a re-analysis of the deposited data

Results flagged for a closer look

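The Flo+ and Flo- ratios went in opposite directions for the uracil permease gene FUR4, with a log2 difference of 1.09 (SE 0.15). All 3 pairs of same-numbered samples were lower after depletion without mannose and all 3 were higher with it. FUR4 was chosen on these values, so this is a description. The uridine permease gene FUI1 came from a list made with earlier results of these data known, so its test is not independent of them. Its difference was 1.68 (SE 0.23, adjusted p = 5.7e-04 by limma), and leaving out single samples moved that value between 1.49 and 1.81.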

How the results depend on the processing

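The sign of the Flo+ and Flo- ratios of all 10 genes was the same under every alternative run. It says little where a ratio was within about 1 standard error of 0. The log2 Flo+ ratio of FCY22 was 0.17 (SE 0.17), and 0.0012 (SE 0.13) without -Rap replicate 3. The log2 Flo- ratio of FCY2 was 0.17 (SE 0.16). The count of genes higher in the difference of the ratios was 1, and 2 with relative log expression scaling (FCY22 and FUR4), 2 after thinning to the smallest library and 3 with the replicate block (FCY2, FCY22 and FUR4). The block also added ADE4 to the lower genes of the Flo+ ratio and ADE17 to the higher genes of the Flo- ratio, and changed no other call of the 10 genes. Among the listed genes it called PHO2 as lower in the difference of the ratios, and 3 salvage genes in place of 1 as higher. Leaving out 1 sample in turn gave between 2 and 7 lower genes in the Flo+ ratio, with 0 to 2 past the study's thresholds, and 1 higher gene throughout. It gave 5 lower and 2 to 4 higher genes in the Flo- ratio, with 0 to 1 past the thresholds. In the difference of the ratios it gave 0 lower and 1 to 3 higher genes, with 1 to 2 past the thresholds, and between the controls 0 to 1 lower and 2 to 3 higher genes, with 0 to 2 past the thresholds. Over all tested genes the same runs gave 671 to 1730 lower in the Flo+ ratio and 1433 to 1950 in the Flo- ratio. They gave 286 to 516 higher in the difference of the ratios. Of the listed gene values computed with 1 sample left out, 101 stayed on the same side of the study's thresholds and 31 of those past them (AAH1, URA7 and DAL4 in the Flo+ ratio, IMD2, HPT1, URA10 and URK1 in the Flo- ratio, IMD2, URA10 and DAL4 between the controls) did not, all at an adjusted p of at most 0.05.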
